A study of Mus musculus with 9 samples.

Results

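The adhesion genes described here are 7 cell-surface molecules that leukocytes use to roll on, stick to and cross vessel walls: Selplg, Spn, Cd44, Pecam1, Cd99l2, Icam1 and Icam2. They were taken by symbol from 55487 gene IDs, and each symbol matched 1 ID. All 7 passed the filter on low counts, which left 18341 genes for testing. They were measured by RNA-seq in splenic monocytes of C57BL/6 mice that had received no treatment before sorting, in 3 groups of 3 libraries. The groups were Ly6Chi (classical) monocytes of wild-type (WT) mice, Ly6Clo (nonclassical) monocytes of WT mice, and Ly6Clo monocytes of Cebpa +37-/- mice, called KO below. The KO allele is a homozygous loss of the +37 element of Cebpa, the gene of the myeloid transcription factor C/EBP-alpha, and the labels name no promoter or cell type that limits it to monocytes. Ages are not given in the sources used here, and no KO Ly6Chi library was analysed here.

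Leukocyte recruitment proceeds in steps. Rolling is carried by selectins that bind sialylated, fucosylated glycans on mucin-like proteins such as PSGL-1 (Selplg), and also on CD43 (Spn) and CD44. Firm adhesion follows when leukocyte integrins bind ICAM proteins, and passage between endothelial cells involves homophilic PECAM-1 and the CD99 family. Ly6Clo monocytes are known for crawling along the inner face of vessels, and high CD43 is a standard surface marker of that subset.

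Libraries held 48141590 to 173703361 counts, the deepest being replicate 2 of both Ly6Clo groups. Cebpa read 31.5 to 51.6 CPM in WT Ly6Chi libraries, 17.7 to 19.2 in WT Ly6Clo libraries and 2.74 to 4.04 in KO, a fall of 2.51 ± 0.27 (SE) on the log2 scale between the Ly6Clo groups (adjusted p = 0.015, and 0.056 with the replicate block). Ly6c2, the gene of the sorting antigen, averaged 946 CPM in WT Ly6Chi libraries, 3.93 in WT Ly6Clo libraries and 2.94 in KO. Monocyte markers were high throughout: the 6 lineage genes Csf1r, Spi1, Cd68, Lyz2, Fcer1g and Tyrobp summed to between 17211 and 48416 CPM in every library. One library, WT Ly6Chi replicate 3, stood apart in its sex-linked genes. Xist read 30 CPM there and at most 0.0417 in the others, while the Y-linked Ddx3y, Eif2s3y and Kdm5d had 0 counts there and at least 69.4, 51.8 and 20.2 CPM in the others. Without that library the log2 difference of WT Ly6Clo over WT Ly6Chi was 1.98 for Spn (edgeR adjusted p = 0.064) and 2.01 for Pecam1 (0.071), both then uncalled. By these genes WT Ly6Chi replicate 3 read as female and the other libraries as male, so it shares no animal with the other WT Ly6Chi libraries. Sex is therefore not balanced in the comparisons with WT Ly6Chi. Whether the other replicates came from different animals is not stated, so part of the spread among the 3 libraries of a group may be technical. Each p-value rests on that spread as estimated over all 3 groups together, with information shared across genes. In sorted pools, fewer cells of a type and less RNA per cell cannot be told apart.

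Levels are CPM, counts scaled to the library size with TMM factors, given for replicates 1 to 3 in order. Group values are mean ± SD over n = 3 libraries. Differences between groups are on the log2 scale, each with a standard error (SE) or a 95% interval. A gene was called when edgeR's quasi-likelihood test gave an adjusted p under 0.05 over all genes tested. Each of the 3 groups enters 2 of the 3 comparisons (the WT subsets against each other, the KO against the WT Ly6Clo group, and the KO against the WT Ly6Chi group). Their values are therefore given side by side and are not independent of each other.

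Of the 7 genes, Pecam1 and Spn rose in WT Ly6Clo against WT Ly6Chi and none fell, where 1.88% of all tested genes were called higher, 1.62% lower and 3.51% in either direction. The same 2 members were called higher in KO Ly6Clo against WT Ly6Chi, where 2.06% of tested genes were called higher, 2.46% lower and 4.52% in all. Between KO and WT Ly6Clo, edgeR called none of the 7. That comparison called 13 genes in all (0.0709%; 0.0109% higher and 0.06% lower). There 1 member, Pecam1, had an unadjusted p under 0.05, against 6.16% of all tested genes. DESeq2 called 1 member and 1.51% of all genes, while limma-voom called 0 members and 0.0872% of all genes. The median log2 fold change of the 7 was 0.11, -0.25 and -0.02 in the 3 comparisons in that order, and that of all tested genes was 0, 0.03 and 0.04. Selplg, Cd44, Cd99l2, Icam1 and Icam2 were called in none of them.

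**Figure D1:**
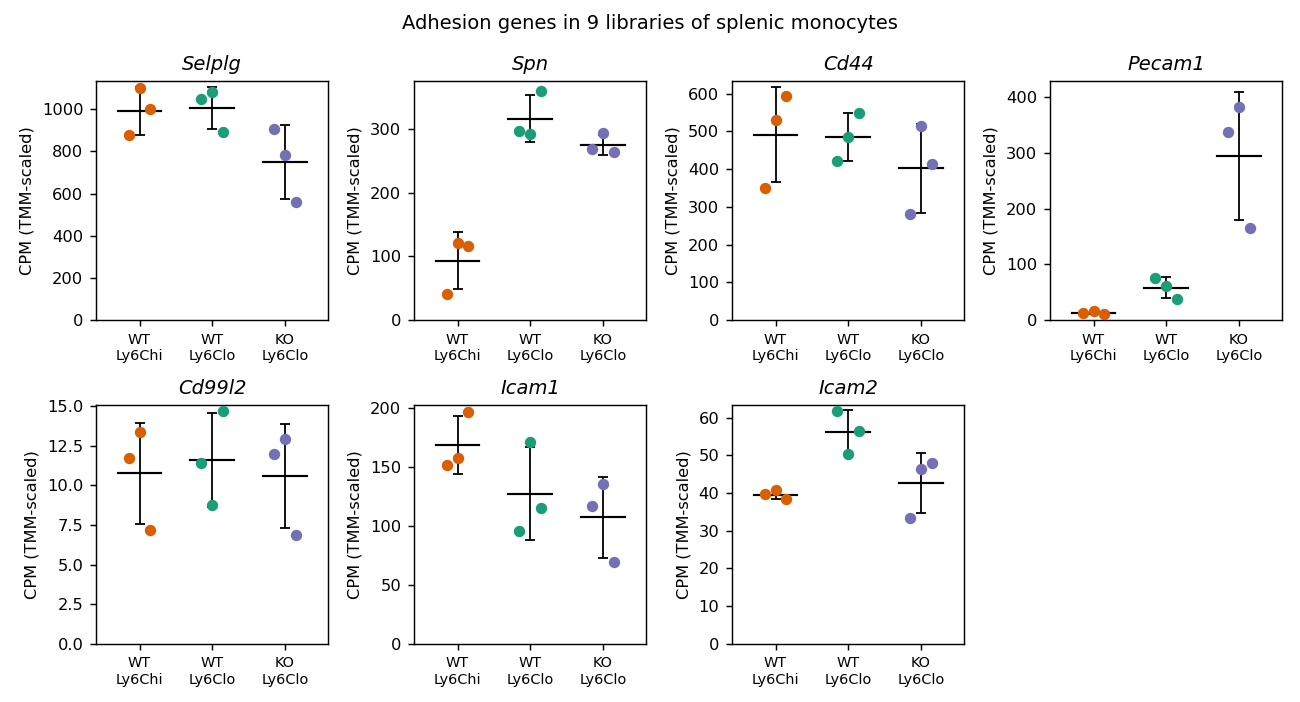
Level of each adhesion gene in CPM (y axis, each panel starting at 0 with its own scale) in WT Ly6Chi, WT Ly6Clo and KO Ly6Clo libraries. Points are libraries, horizontal bars group means and whiskers 1 SD (n = 3). Pecam1 lies in 3 separate ranges, lowest in WT Ly6Chi and highest in KO, and Spn is low in WT Ly6Chi alone.

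Per transcript length, the order of the genes can be compared on the deposited TPM scale. Selplg was the most abundant of the 7 in each group, with mean TPM levels of 708 in WT Ly6Chi libraries, 724 in WT Ly6Clo libraries and 577 in KO. Cd44 averaged 220, 221 and 195 TPM in the same order. Cd99l2 was the lowest in both Ly6Clo groups (7.37 and 7.09 TPM), and in WT Ly6Chi its 6.71 ± 1.99 TPM did not differ beyond the spread from the 6.58 ± 1.33 of Pecam1. Icam1 and Icam2 lay between, at 88.7 ± 21.7 and 91.2 ± 14.1 TPM in WT Ly6Clo, again within their spread of each other.

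The makeup of the set differed between the groups. Of the summed TPM of the 7 genes, Pecam1 supplied 0.56% ± 0.112 in WT Ly6Chi libraries, 2.1% ± 0.672 in WT Ly6Clo libraries and 11.8% ± 3.02 in KO. Spn supplied 4.93% ± 1.92, 15.3% ± 2.26 and 15.3% ± 2.1. The share of Selplg was 60.1% ± 3.35, 52.8% ± 3.94 and 44.8% ± 5.82. These shares add to 100% in each library, so a higher share of one gene lowers the others.

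**Figure D2:**
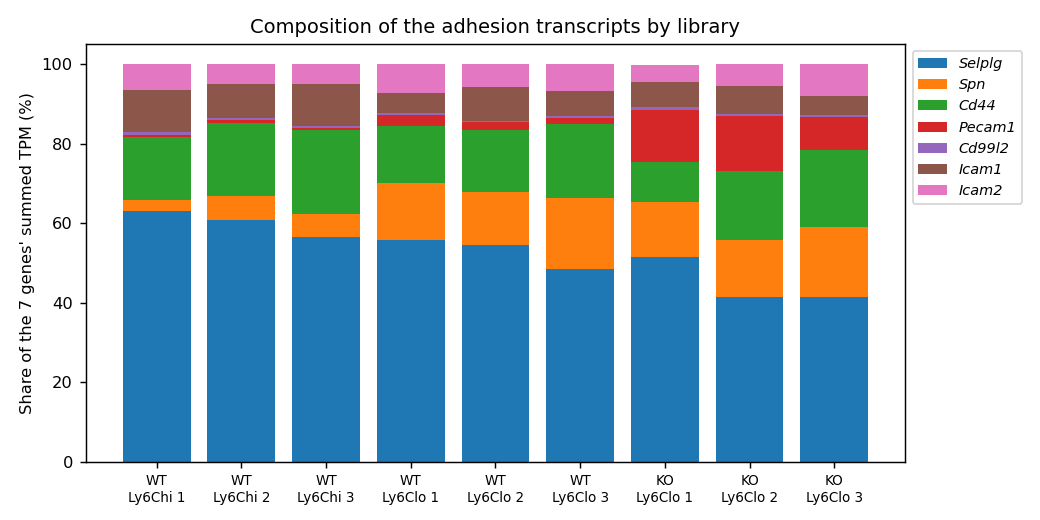
Share (%) of each gene in the summed TPM of the 7 adhesion genes, 1 bar per library. Selplg fills 41.4 to 63% of every bar, and the Pecam1 segment is 0.43 to 0.627% in WT Ly6Chi libraries, 1.42 to 2.76% in WT Ly6Clo libraries and 8.34 to 13.9% in KO.

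Among the ligands and sialomucins, Spn encodes CD43 (leukosialin), a long, heavily sialylated mucin of leukocytes that can both hinder and support cell contact. The gene, ENSMUSG00000051457, lies on the minus strand of chromosome 7 at 127132232 to 127137823 (GRCm38). Spn was read at 41.3, 121 and 117 CPM in WT Ly6Chi, at 298, 293 and 360 in WT Ly6Clo and at 269, 294 and 264 in KO. All 6 Ly6Clo libraries were above all WT Ly6Chi libraries, and both Ly6Clo groups overlapped. The increase was 3.41-fold in WT Ly6Clo over WT Ly6Chi (log2 1.77 ± 0.35 SE, adjusted p = 0.03) and 2.96-fold in KO (1.57 ± 0.35, adjusted p = 0.04). Between KO and WT Ly6Clo the log2 difference was -0.20, with an interval of -0.98 to 0.57, which leaves room for a change in either direction.

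WT Ly6Chi replicate 1 was the lowest library for Spn. Without it the fold changes were 1.42 and 1.21 on the log2 scale and the adjusted p 0.0062 and 0.0081. Ly6Clo marker genes (Nr4a1, Cx3cr1, Treml4, Ace, Fcgr4 and Cd9) summed to 791 CPM in that library and to 4267 and 4499 in the other WT Ly6Chi libraries. Most of that gap was Nr4a1, at 322 CPM there and 2627 and 2785 in the others. Nr4a1 also ranged from 2458 to 11134 CPM within WT Ly6Clo. Each of the other marker genes was lower there too than in both other WT Ly6Chi libraries. The part of these genes in the spread of Spn was not tested. The call in WT Ly6Clo was lost on leaving out WT Ly6Chi replicate 2 (adjusted p = 0.063) or 3 (0.064) or WT Ly6Clo replicate 1 (0.079), 2 (0.076) or 3 (0.098). The call in KO against WT Ly6Chi was lost on leaving out any single library other than WT Ly6Chi replicate 1 (0.058 to 0.11). Library numbers form 2 runs, and within them the log2 ratio of mean CPM was 2.84 and 1.6 for WT Ly6Clo over WT Ly6Chi and 2.77 and 1.15 for KO over WT Ly6Chi. NK cell markers, from cells that also carry CD43, summed to 23.1 to 78.3 CPM in WT Ly6Chi libraries, 61.1 to 252 in WT Ly6Clo libraries and 14.3 to 346 in KO, and their part was not tested. Over KO replicates 1 to 3 the NK sums were 14.3, 346 and 82.9 CPM, beside Spn at 269, 294 and 264 CPM. T cell genes gave sums of 35.2, 161 and 110 CPM for these libraries, and their part was not tested either.

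RefSeq promoter windows on GRCm38.p6 were at hand for 4 of the 7 genes (Spn, Cd44, Cd99l2 and Icam1). Those of Spn, a gene called in 2 comparisons, and of Icam1, a gene called in none, are shown as the 250 bases before each gene's RefSeq start, 5′ to 3′ on the strand of the gene. For Icam1 that start lies upstream of the gene start in the deposited tables, so its window does not adjoin the gene as those tables give it. Motif positions are counted from the RefSeq start. In Spn (chr7:127137824-127138073, minus strand) capitals mark GGGTGG or its reverse complement, a GT-type variant of the GC box that zinc-finger factors of the Sp and Krüppel-like families are known to bind. In Icam1 (chr9:21015690-21015939, plus strand) capitals mark GGAAATTCC, the kappaB motif of the inducible ICAM-1 promoter, the GC box GGGCGG and GGGTGG, each on either strand.
Spn: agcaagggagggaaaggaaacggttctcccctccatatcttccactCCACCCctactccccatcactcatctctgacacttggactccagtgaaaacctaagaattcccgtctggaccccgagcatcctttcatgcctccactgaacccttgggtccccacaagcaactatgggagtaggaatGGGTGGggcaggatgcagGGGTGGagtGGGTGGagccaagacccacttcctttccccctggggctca
Icam1: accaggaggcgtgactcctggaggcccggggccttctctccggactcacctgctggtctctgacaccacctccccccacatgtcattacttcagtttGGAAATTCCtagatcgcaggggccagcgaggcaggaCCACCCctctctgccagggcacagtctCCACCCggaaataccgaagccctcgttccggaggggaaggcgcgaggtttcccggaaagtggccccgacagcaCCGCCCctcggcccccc
The Spn window holds the GGGTGG motif 4 times, starting 204, 67, 49 and 40 bases before the RefSeq start, the first on the opposite strand. That motif was added to the search after the Spn sequence was seen, and 28.1% of 32851 promoter windows of this length hold it at least once. The Icam1 window holds 1 kappaB match (0.286% of windows hold one), 153 to 145 bases before the RefSeq start, 1 GC box (32.7%) and 2 GGGTGG matches. GC content was 56.8% in Spn, with 3 CpG dinucleotides, and 65.2% in Icam1, with 15, against medians of 52.4% and 6 over all windows. The C/EBP motif TTGCNNAA, found in 9.56% of windows, the Nr4a receptor motif AAAGGTCA (1.34%) and the PU.1 core GAGGAA (23.3%) had no match in these windows on either strand. No matches printed here overlap, and a match of letters is a description, not a binding site.

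Selplg encodes PSGL-1, the main leukocyte ligand of P-selectin (ENSMUSG00000048163, chromosome 5, 113818536 to 113832644, minus strand). Its levels were 876, 1103 and 1001 CPM in WT Ly6Chi libraries, 1048, 1080 and 893 in WT Ly6Clo libraries and 906, 782 and 561 in KO. KO replicate 3 was the lowest library of all, and the KO range overlapped both WT groups. The log2 difference of WT Ly6Clo from WT Ly6Chi was 0.02 (interval -0.42 to 0.46), and that of KO from WT Ly6Clo was -0.43 (-0.87 to 0.02, adjusted p = 0.83). KO differed from WT Ly6Chi by -0.41 (-0.85 to 0.03, adjusted p = 0.34).

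Cd44 encodes the hyaluronan receptor, which also carries selectin-binding glycans (ENSMUSG00000005087, chromosome 2, 102811141 to 102901665, minus strand). It was read at 350, 529 and 593 CPM in WT Ly6Chi libraries, 422, 485 and 549 in WT Ly6Clo libraries and 280, 514 and 413 in KO. The 3 groups overlapped throughout, and each pair of group means differed by less than the SD of at least 1 of the groups. The log2 differences were -0.02 (-0.61 to 0.58) for WT Ly6Clo over WT Ly6Chi, -0.27 (-0.87 to 0.32) for KO over WT Ly6Clo and -0.29 (-0.88 to 0.31) for KO over WT Ly6Chi. The tables count whole genes, so the variant exons of CD44 cannot be told from its standard form.

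Pecam1 encodes PECAM-1 (CD31), an immunoglobulin-family receptor that binds itself across cell contacts and carries inhibitory motifs that recruit phosphatases (ENSMUSG00000020717, chromosome 11, 106654217 to 106750628, minus strand). It was read at 12.6, 16.6 and 11.1 CPM in WT Ly6Chi. WT Ly6Clo libraries held 75.6, 61 and 38.1 CPM, and KO libraries 337, 382 and 165. The 3 groups formed 3 steps with no overlap, and replicate 3 was the lowest library of each group. Group means were 13.4 ± 2.82, 58.2 ± 18.9 and 295 ± 114 CPM. These levels rest on 545 to 54425 counts per library.

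WT Ly6Clo exceeded WT Ly6Chi in Pecam1 by 4.33-fold (interval 2.45 to 7.65; log2 2.11 ± 0.36 SE, adjusted p = 0.017). KO exceeded WT Ly6Chi by 21.9-fold (11.7 to 41.1; log2 4.45 ± 0.40, adjusted p = 0.00067). KO exceeded WT Ly6Clo by 5.06-fold (2.86 to 8.95; log2 2.34 ± 0.36), at rank 28 of the 18341 genes by edgeR's p, but its adjusted p of 0.079 missed the threshold. With the replicate number as a block the same difference was 2.31 ± 0.22 and was called (adjusted p = 0.034). It was also called with no filter on low counts (0.0032), with a filter of 1 CPM in 3 libraries (0.049), by DESeq2 (2.3e-07) and without KO replicate 3 (0.035), and was not called by limma-voom (0.065) or in a fit of both groups alone, without the block (0.25) or with it (0.1). RLE scaling (0.084), the run term (0.053) and leaving out any library other than KO replicate 3 (0.13 to 0.32) also left it uncalled, so that 13 of 18 alternatives made no call. Over all alternatives the log2 difference lay between 2.09 and 2.62. Within the 2 runs of library numbers it was 2.4 and 2.11 as the ratio of mean CPM, and for WT Ly6Clo over WT Ly6Chi it was 2.44 and 1.46.

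The call of Pecam1 in WT Ly6Clo against WT Ly6Chi was lost by limma-voom (adjusted p = 0.052) and on leaving out WT Ly6Chi replicate 1 (0.073), 2 (0.051) or 3 (0.071) or WT Ly6Clo replicate 1 (0.065) or 2 (0.057), at log2 differences of 1.90 to 2.31. Against WT Ly6Chi, KO was called under each of the 17 alternatives run for that comparison, at 4.14 to 4.74.

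PECAM-1 is best known from endothelial cells and platelets, so their markers were read beside it. The 10 endothelial markers summed to 10.8 to 13.5 CPM in WT Ly6Chi libraries, 44.6 to 66.1 in WT Ly6Clo libraries and 101 to 130 in KO, in the same order as Pecam1. Nearly all of that sum was Vwf, the gene of von Willebrand factor, at 8.91 to 13 CPM, 43.1 to 65.1 and 94.3 to 125. Vwf rose in WT Ly6Clo over WT Ly6Chi (log2 2.30 ± 0.24, adjusted p = 0.0022), and its difference between KO and WT Ly6Clo was 0.91 ± 0.23 (adjusted p = 0.43). Of the other 9 markers, no library exceeded 0.248 CPM of Cdh5, 0.369 of Tek, 0.491 of Tie1, 0.0199 of Robo4 or 0.0351 of Cldn5. Ramp2 was at 0.344 to 0.579 CPM in KO and at most 0.0191 in WT Ly6Clo. Plvap was at 0.0931, 1.64 and 2.98 CPM in KO replicates 1 to 3 and at most 0.147 in WT Ly6Clo, and Egfl7 was at 0.0931, 2.76 and 2.35 against at most 1.07. Kdr reached 2.59 CPM in KO replicate 1 and at most 0.00701 in the other KO libraries. The median log2 difference of the 5 endothelial markers tested was 1.77 between KO and WT Ly6Clo, where none was called, and -0.28 between WT Ly6Clo and WT Ly6Chi, where Vwf alone was called. The part of endothelial RNA in the Pecam1 levels was not tested.

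Platelet and megakaryocyte markers (10 genes) summed to 31.8 to 41.7 CPM in WT Ly6Chi libraries, 46.8 to 79.5 in WT Ly6Clo libraries and 53.4 to 83.2 in KO, so that both Ly6Clo groups overlapped. Itgb3, the beta-3 integrin that monocytes also make, was the largest part, at 16.8 to 80 CPM. In KO replicate 1, where Pecam1 was at 337 CPM, the 10 genes summed to 83.2 CPM, the highest of the 9 libraries. Itgb3 was at 80 CPM there, its highest, Pf4 at 1.54, and each of the others at or below the 0.745 of Itga2b. The part of platelets in the Pecam1 levels was not tested. Conventional dendritic cell markers (8 genes) summed to 185 to 445 CPM in WT Ly6Chi libraries and 211 to 345 in WT Ly6Clo libraries. In KO replicates 1 to 3 they summed to 487, 757 and 250. Dpp4 and Wdfy4 were the largest parts there, with group means of 80.7, 60.6 and 233 CPM for Dpp4 and 105, 148 and 196 for Wdfy4. From WT Ly6Clo to KO the means of Zbtb46, Xcr1 and Clec9a also rose. Those of Cd209a (34.5 to 1.6 CPM), Flt3 and Batf3 fell. The median log2 difference of the list between KO and WT Ly6Clo was 0.34, and none was called. Erythroid markers (8 genes) summed to 139 to 238, 411 to 3394 and 1.8 to 7719 CPM in the 3 groups. The part of these cells was not tested either.

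**Figure D3:**
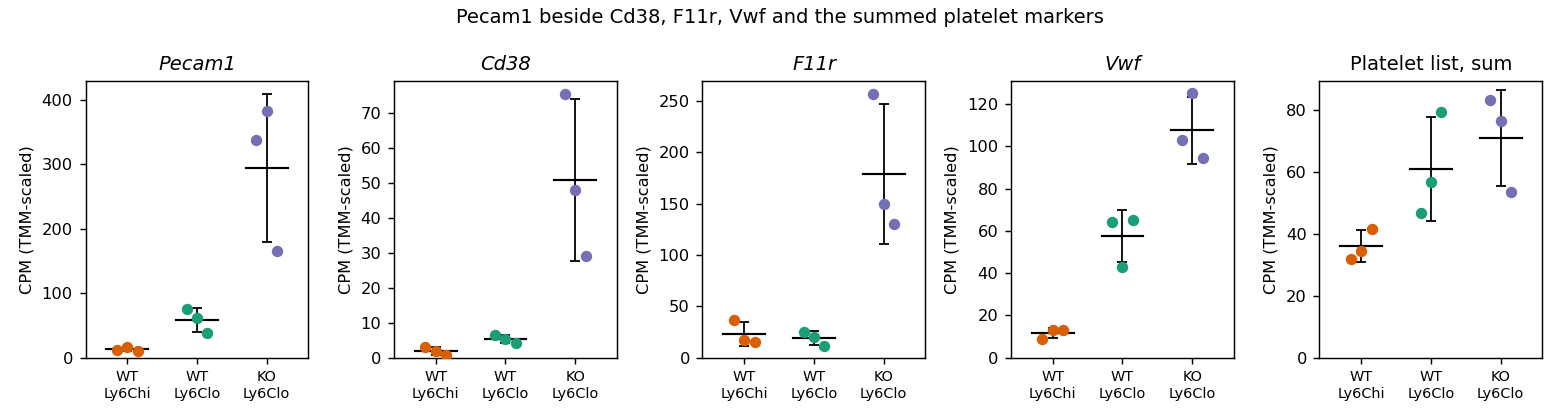
Level in CPM (y axis, each panel starting at 0 with its own scale) of Pecam1, Cd38, F11r and Vwf and the summed level of 10 platelet and megakaryocyte markers. Points are libraries, horizontal bars means and whiskers 1 SD (n = 3). Pecam1, Cd38, F11r and Vwf are higher in each KO library than in any WT library, while the platelet sums of KO (53.4 to 83.2) and WT Ly6Clo (46.8 to 79.5) overlap.

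Cd99l2 encodes CD99 antigen-like 2, which takes part in transendothelial migration (ENSMUSG00000035776, chromosome X, 71420060 to 71492849, minus strand). It had the fewest counts of the 7 genes, 353 to 1840 per library. Levels were 11.7, 13.4 and 7.21 CPM in WT Ly6Chi libraries, 11.4, 8.76 and 14.7 in WT Ly6Clo libraries and 12, 12.9 and 6.85 in KO. All 3 groups overlapped. The log2 differences were 0.11 (-0.72 to 0.94), -0.13 (-0.96 to 0.70) and -0.02 (-0.85 to 0.81) in the 3 comparisons, so changes of about the size of those intervals were not detectable at this depth and spread. The gene is X-linked, and without WT Ly6Chi replicate 3, the library set apart by its sex-linked genes, the first difference was -0.10 in place of 0.11. Cd99l2 was called neither with that library nor without it.

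Icam1 encodes ICAM-1, the inducible ligand of the beta-2 integrins LFA-1 and Mac-1 (ENSMUSG00000037405, chromosome 9, 21015985 to 21028817, plus strand). It was read at 151, 157 and 196 CPM in WT Ly6Chi libraries, 95.3, 171 and 115 in WT Ly6Clo libraries and 117, 135 and 69.1 in KO. Every KO library was below every WT Ly6Chi library, as for 11.7% of all tested genes in that comparison, while WT Ly6Clo overlapped both groups. The log2 difference of KO from WT Ly6Chi was -0.65 (-1.31 to 0.01, adjusted p = 0.31). That of WT Ly6Clo from WT Ly6Chi was -0.40 (-1.06 to 0.26, adjusted p = 0.53), and that of KO from WT Ly6Clo -0.25 (-0.91 to 0.41).

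Icam2 encodes ICAM-2, a ligand of LFA-1 that is made without induction (ENSMUSG00000001029, chromosome 11, 106377656 to 106388075, minus strand). Its levels were 39.8, 40.7 and 38.3 CPM in WT Ly6Chi libraries, 61.9, 50.3 and 56.4 in WT Ly6Clo libraries and 33.4, 46.4 and 47.9 in KO. Each WT Ly6Clo library was above every library of the other two groups, and KO overlapped WT Ly6Chi. The log2 difference of WT Ly6Clo from WT Ly6Chi was 0.50 (0.09 to 0.92) and missed the threshold (adjusted p = 0.19). KO differed from WT Ly6Clo by -0.40 (-0.82 to 0.02, adjusted p = 0.84) and from WT Ly6Chi by 0.10 (-0.31 to 0.52). Counting groups that did not overlap, 3 members (Spn, Pecam1 and Icam2) were higher in WT Ly6Clo than in WT Ly6Chi, against 13.6% of tested genes (14.7% lower and 28.3% in either direction). KO was higher than WT Ly6Clo for Pecam1 (5.22% of tested genes) and lower for Icam2 (5.7%), or 10.9% in either direction. It was higher than WT Ly6Chi for Spn and Pecam1 (11.3%) and lower for Icam1, or 22.9% in either direction.

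**Figure D4:**
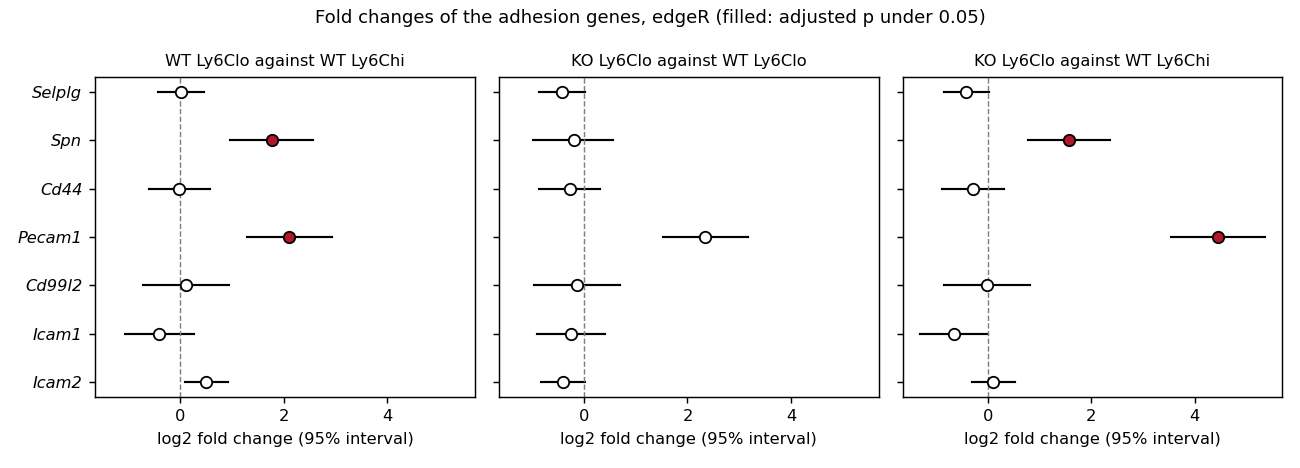
Log2 fold change (x axis) of each adhesion gene with its 95% interval from edgeR, 1 panel per comparison. Filled points passed an adjusted p of 0.05. Pecam1 and Spn are filled in both comparisons with WT Ly6Chi, and Pecam1 lies at 2.34 but unfilled in KO against WT Ly6Clo.

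Icam2 and Pecam1 lie on the same strand of chromosome 11 with 266141 bases between them. In KO against WT Ly6Clo the log2 difference was -0.40 for Icam2 and 2.34 for Pecam1. The tested genes between them, Ern1, Snord104 and Tex2, differed by -0.07, -0.17 and -0.24. On the far side of Pecam1, Milr1 differed by -0.13, and Gm25889, Polg2, Ddx5, Cep95 and Smurf2 by -0.63, 0.05, 0.20, -0.18 and -0.61. None of these was called (adjusted p 0.84 for Icam2 and 1 for the others). Ddx5, the most abundant of them, was read at 582, 708 and 812 CPM as group means.

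Genes with the most similar profiles were sought over 8997 protein-coding genes of at least 5 CPM, by the root mean square (RMS) difference of log2(CPM + 1) from each gene's own mean over the 9 libraries. For Pecam1 they were Cd38 (RMS 0.48) and Palld, the gene of the actin-binding palladin (0.63), with means of 0.753, 5.63 and 27.7 CPM for Palld in WT Ly6Chi, WT Ly6Clo and KO. For Spn they were Dock5 and Extl3 (both 0.16). Dock5, a guanine nucleotide exchange factor of Rac, averaged 94.5, 299 and 298 CPM. The closest to Selplg were Rufy1 (0.05) and Mapkapk3 (0.11), to Cd44 Rad21 and Zyx (both 0.11), and to Cd99l2 Bcl9 and Bpnt1 (both 0.19). For Icam1 they were Gpr65 (0.11) and Osbpl11 (0.15), and for Icam2 Aen and Umps (both 0.12). Within the set the closest pair was Selplg and Icam1 (0.31) and the most distant Pecam1 and Icam1 (2.07). For each of the other 6 genes both closest profiles were nearer than the closest to Pecam1. The RMS difference is not scaled by a gene's own range, which on the log2 scale was widest for Pecam1 (11.1 to 382 CPM). Genes that vary little therefore find close profiles more easily.

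The partners of these molecules were read from lists of related genes. Selp and Sele, the vascular selectins, did not exceed 0.51 and 1.37 CPM in any library. Of the 11 genes that build selectin ligands, 1 fell and none rose against WT Ly6Chi in either Ly6Clo group, and none was called between KO and WT Ly6Clo. It was C1galt1c1, the chaperone of the core 1 O-glycan synthase, at 106 ± 54.3, 30.8 ± 5.5 and 25.3 ± 8.84 CPM (log2 -1.78 ± 0.38, adjusted p = 0.038, in WT Ly6Clo). That call was lost on leaving out any library but KO replicate 1 (0.053 to 0.14), and the call in KO (adjusted p = 0.018) on leaving out KO replicate 2 (0.078) or 3 (0.085). Fut7, the fucosyltransferase of sialyl Lewis X, was not called and averaged 28.4, 33.1 and 19.3 CPM.

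Among other sialomucins, 3 of the 7 matched genes passed the filter and none was called. The most abundant, Cd164 (endolyn), averaged 63.7, 75.1 and 74.3 CPM. Cd24a, the heat-stable antigen, ranged from 3.38 to 95.5 CPM within the KO group. Of Icam4, Icam5 and Vcam1, Vcam1 alone was tested and was not called, at 7.02, 20.6 and 12.5 CPM, and Icam5 stayed at or below 0.232 CPM in every library. Of 8 linkers of membrane proteins to actin none was called. The most abundant was Msn (moesin, which anchors CD43, CD44 and PSGL-1 to actin), at 2468, 4474 and 4319 CPM, and Tln1 (talin) averaged 1485, 1914 and 1924.

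Of 10 integrin genes, 3 rose and 1 fell in WT Ly6Clo against WT Ly6Chi, the medians being 1.01 for the list and 0 for all genes. Itgb2, the beta chain of the ICAM-binding integrins, went from 1682 ± 190 to 3764 ± 169 CPM (log2 1.16 ± 0.14, adjusted p = 0.0035). Itgax (CD11c) went from 33.6 ± 16 to 316 ± 83.2 CPM (3.23 ± 0.45, adjusted p = 0.0068) and Itgb1 from 571 ± 93.7 to 1205 ± 62.8 (1.08 ± 0.17, adjusted p = 0.013). The call of Itgb1 was lost without WT Ly6Chi replicate 2 (0.063) or WT Ly6Clo replicate 1 (0.061). Itgb7, a partner of alpha-4 integrin, fell by 1.03 ± 0.19 (adjusted p = 0.021). In KO against WT Ly6Chi Itgb2, Itgax and Itgb1 rose (0.98, 3.15 and 1.03; Itgb1 not without WT Ly6Chi replicate 2, adjusted p = 0.065) and none fell, and KO against WT Ly6Clo called none of the 10. The ligands Icam1 and Icam2 were called in no comparison while the shared beta chain of their receptors was called in both that include WT Ly6Chi.

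Junctional molecules (7 of 11 tested) had 1 gene called, F11r, which encodes JAM-A, a homophilic receptor of tight junctions and of leukocytes. It was read at 36.9, 17.6 and 15.2 CPM in WT Ly6Chi libraries, 25.2, 20.5 and 11.9 in WT Ly6Clo libraries and 257, 150 and 130 in KO. Every KO library was above every WT library, and the WT groups overlapped. F11r rose in KO against WT Ly6Chi (log2 2.95 ± 0.45, adjusted p = 0.008). Against WT Ly6Clo the difference was 3.22 ± 0.45 (adjusted p = 0.053), called with the replicate block (0.0097) and by DESeq2 (1.3e-10) and limma-voom (0.029) and not in a fit of both Ly6Clo groups alone (0.13). Without WT Ly6Chi replicate 1 it was called (0.043), and with another library left out it was not (up to 0.21).

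Among 9 signalling partners of PECAM-1 and PSGL-1, 1 rose and 1 fell in each comparison with WT Ly6Chi and none was called between KO and WT Ly6Clo. Cd38, a NAD-consuming ectoenzyme reported to bind CD31, was read at 2.95, 1.88 and 0.796 CPM in WT Ly6Chi libraries, 6.51, 5.34 and 4.24 in WT Ly6Clo libraries and 75.3, 47.9 and 29.1 in KO, with no overlap between the groups. It rose in KO against WT Ly6Chi (log2 4.75 ± 0.56, adjusted p = 0.0024). Against WT Ly6Clo it stood at 3.24 ± 0.52 (adjusted p = 0.09), called with the replicate block (0.034), the run term (0.043) and no filter on low counts (0.0026) and by DESeq2 (2.4e-08), and not by limma-voom (0.052) or with any single library left out (0.078 to 0.4), and 14 of 18 alternatives made no call. Ptpn6, the phosphatase SHP-1 that PECAM-1 recruits, rose in WT Ly6Clo against WT Ly6Chi from 1277 ± 105 to 2058 ± 69 CPM (0.69 ± 0.15, adjusted p = 0.042) and in KO averaged 1771. That call was lost with no filter on low counts (0.16) and on leaving out any WT library (0.11 to 0.14) or KO replicate 2 (0.062). Cd177, a neutrophil protein that binds PECAM-1, fell from 491 ± 112 CPM in WT Ly6Chi to 1.89 ± 1.63 in WT Ly6Clo (adjusted p = 0.026) and 0.436 ± 0.415 in KO (adjusted p = 0.012). The first of these calls was lost on leaving out any WT library but WT Ly6Clo replicate 2 (0.057 to 0.1), and the second without KO replicate 2 (0.055). Neutrophil markers (11 genes) summed to 925 to 1278 CPM in WT Ly6Chi libraries, 362 to 465 in WT Ly6Clo libraries and 179 to 365 in KO. Csf3r, at 297 to 473, 356 to 459 and 170 to 328 CPM, was most of the sum in both Ly6Clo groups. S100a8 averaged 113, 0.821 and 4.95 CPM, and Ly6g 0.213, 0.222 and 0.316. Against WT Ly6Chi, 6 of the 11 genes were called lower in WT Ly6Clo and 2 in KO. Between KO and WT Ly6Clo their median log2 difference was 2.61, opposite to the fall of the sum, and none was called. The part of neutrophil RNA in the Cd177 levels was not tested.

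Of 11 tested hyaluronan and CD44 partners, Vcan (versican, a hyaluronan-binding proteoglycan) was the one called: it fell in WT Ly6Clo against WT Ly6Chi (adjusted p = 0.036). The call was lost by limma-voom (0.12) and on leaving out any single WT library (0.069 to 0.14). Vcan was read at 13 to 88.6 CPM in WT Ly6Chi, at most 0.0764 in WT Ly6Clo and at most 1.33 in KO. Of 9 proteases that shed adhesion molecules, Adam15 fell and none rose in either Ly6Clo group. Adam15 was at 186 ± 13.2 CPM in WT Ly6Chi libraries, 79 ± 7.14 in WT Ly6Clo libraries and 76.4 ± 3.34 in KO (log2 -1.23 ± 0.14, adjusted p = 0.0031, and -1.28 ± 0.14, adjusted p = 0.0015). KO against WT Ly6Clo called none of either list.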

How the data were processed

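Count, CPM, FPKM and TPM columns were deposited by the authors for each library. The counts are raw whole numbers per gene, per the file headers. The authors' CPM, FPKM and TPM equal values recomputed from count and length (largest difference 7e-11). The submitters' processing notes name STAR 2.5.1a, featureCounts 1.4.6-p5, Salmon 0.8.2 and GRCm38 (mm10), with no roles. The sources used here do not give strand use; antisense genes overlapping Cd44, Cd99l2 and Icam1 held at most 33 counts. Symbols came from GENCODE for 99.38% of IDs. RNA of 40000 to 50000 sorted cells was amplified (12 to 15 PCR cycles, no molecular identifiers).

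Counts were fitted in R 4.3.3 with edgeR 4.0.16 (filterByExpr, minimum count 10, TMM, 1 term per group over 9 libraries, quasi-likelihood test, Benjamini-Hochberg). Libraries of one group differed by a chi-square of 55.2 to 482 per gene, so none was a library deposited again. Alternatives were RLE scaling, other filters, DESeq2 1.42.0, limma-voom (limma 3.58.1), fits of 2 groups, a replicate block, a term for 2 runs of library numbers and each library left out. Same-numbered WT and KO Ly6Clo libraries deviated together for replicates 1 and 2 (r = 0.463 and 0.351). For replicate 3 the r of 0.121 did not stand out. Differently numbered pairs of these groups gave -0.418 to 0.126, the highest being WT Ly6Clo replicate 2 with KO replicate 3. This pairing comes from the data and not from a label, so the blocked value is given where it changes a call. The steps were tested on simulated counts that had the same spread for every gene and no pairing, run or sex effect. That test checks the code and not how the calls hold under the spread of these libraries. Members, lists and the naming rule (members called with the smallest adjusted p, up to 3 per list, otherwise those of highest level, and 2 genes of like profile) were chosen with earlier results of these data known. Itgb7, Fut7, Selp, Sele, Vwf, marker genes and the neighbours of Pecam1 are named outside that rule, after their values were seen. A result for a gene that the rule names is not reported here.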

Additional observations from a re-analysis of the deposited data

How the results depend on the processing

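Of the 7 genes, the number called in WT Ly6Clo against WT Ly6Chi was 2, but 1 with limma-voom and 0 to 2 with a library left out. In KO against WT Ly6Clo it was 0, but 1 (Pecam1) with no filter, with the filter of 1 CPM, with DESeq2 and with the replicate block, and 0 to 1 with a library left out. In KO against WT Ly6Chi it was 2, but 1 in the fit of 2 groups and 1 to 2 with a library left out. The replicate block changed no other call among the 7 genes. Same-numbered libraries did not all deviate together against WT Ly6Chi (r = 0.353, 0.142 and 0.0683 with WT Ly6Clo, and 0.326, 0.236 and -0.00733 with KO), and the block there called 949 genes in place of 643 and 977 in place of 829. Over all genes, KO against WT Ly6Clo called 13, but 54 with no filter, 27 with the filter of 1 CPM, 277 with DESeq2, 0 in the fit of 2 groups, 2 in that fit with the block (added after the replicate check) and 2 to 21 with a library left out. DESeq2 called 1960 and 1951 genes in the comparisons with WT Ly6Chi, and left-out libraries gave 239 to 847 and 379 to 818. The fit of 2 groups called 553 in KO against WT Ly6Chi. The call of Cebpa between KO and WT Ly6Clo was lost under 9 of 18 alternatives (adjusted p up to 0.27), at log2 values of -2.71 to -2.41 over all 18. Among the 9 were the block (0.056) and the fit of 2 groups (0.13). It was also lost on leaving out WT Ly6Chi replicate 3, any WT Ly6Clo replicate or KO replicate 2 or 3 (up to 0.079).

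The differences whose sign turned were not called under any of these settings. In WT Ly6Clo against WT Ly6Chi, Selplg was -0.0024 with the filter of 1 CPM, -0.06 with the run term and -0.05 to 0.11 with a library left out (-0.05 and -0.04 turned). Cd44 was 0.04 with no filter, 0.02 with limma-voom, 0.02 with the replicate block, 0.12 with the run term and -0.20 to 0.16 with a library left out (0.05, 0.16 and 0.08 turned). Cd99l2 was -0.10 to 0.31 (-0.10 and -0.08 turned). In KO against WT Ly6Clo, left-out libraries turned Cd99l2 to 0.07 and 0.10 (range -0.31 to 0.10) and Icam1 to 0.04 (-0.47 to 0.04). In KO against WT Ly6Chi, Cd99l2 was 0.02 with no filter, 0.03 with limma-voom and 0.04, 0.17 and 0.21 with a library left out (range -0.24 to 0.21). The cause of these shifts was not tested. Each of the 7 genes had 353 counts or more in every library. The intervals rest on the spread within groups of 3 libraries, estimated over all groups together.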
